A study of Mus musculus with 26 samples.

Results

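Sdcbp2, the gene for syntenin-2, was described here in single mouse oocytes through its 1 row, TCONS_00058304, among the 38540 transcripts of the deposited count table. The row was chosen because its counts were already known to be lower in SN than in NSN oocytes, with a wide spread between SN oocytes. Its levels by stage and its spread within SN are therefore given as a description, with no test. The comparison of the 2 mice did not enter the choice and was tested. It used the same SN values, however, whose spread was known when the row was chosen.

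Fully grown germinal vesicle (GV) oocytes were taken from 2 wildtype C57Bl6/Babr mice, 12 weeks of age, with no treatment in any group. Cumulus cells were stripped off, and Hoechst-stained DNA was imaged in each oocyte. Oocytes in which the DNA closed around the nucleolus were classed as SN (surrounded nucleolus) and those in which it did not enclose the nucleolus as NSN (non-surrounded nucleolus), while 1 oocyte with partly enclosing DNA was classed as intermediate. PolyA RNA of each oocyte was amplified and sequenced without molecular identifiers, so a count is a read and not a molecule. Counts were available for 9 NSN oocytes, 16 SN oocytes and 1 intermediate oocyte. These were not all the oocytes collected: the authors had set a minimum read number and had excluded 2 oocytes as outliers by clustering. What that filtering did to the spread within SN and the gap between the stages was not tested. Mouse C gave 5 NSN and 9 SN oocytes, and mouse D gave 4 NSN and 7 SN oocytes and the intermediate one. As all oocytes came from 2 animals, the spread between them is a spread between cells, and p-values measure that spread only.

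Syntenins are adaptor proteins whose PDZ domains bind the cytoplasmic tails of syndecans and the membrane lipid phosphatidylinositol bisphosphate. Syntenin-1, the product of the paralogous gene Sdcbp, is known for its role with ALIX in the formation of exosomes, and syntenin-2 has been less studied. The step from NSN to SN comes late in oocyte growth, when chromatin condenses around the nucleolus and transcription is shut down, so that the mRNA pool afterwards depends on storage and decay.

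In GENCODE M21 the gene lies on chromosome 2 of GRCm38, on the plus strand, from 151572622 to 151590005. It has 1 annotated transcript of 1399 bases in 9 exons, of which 876 bases code for protein before the stop codon. No other annotated gene overlapped it on either strand. Snph, on the opposite strand and so running towards Sdcbp2, had its 3′ end 543 bases beyond the end of Sdcbp2, and Fkbp1a ended 10929 bases before its start. Of the 1350 windows of 50 bases in the Sdcbp2 transcript, 0 occurred in an annotated transcript of another gene, so reads of this length taken from it had no identical copy among those transcripts. The exon model behind the row TCONS_00058304 itself was not used here.

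The promoter is printed to show the region from which this transcript starts, with 250 bases before and 50 after the RefSeq start (chr2:151572373-151572672 of GRCm38.p6, plus strand, 5′ to 3′, from RefSeq). Capitals mark the matches, on either strand, of the short motifs that are given after the sequence.

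Sdcbp2 promoter: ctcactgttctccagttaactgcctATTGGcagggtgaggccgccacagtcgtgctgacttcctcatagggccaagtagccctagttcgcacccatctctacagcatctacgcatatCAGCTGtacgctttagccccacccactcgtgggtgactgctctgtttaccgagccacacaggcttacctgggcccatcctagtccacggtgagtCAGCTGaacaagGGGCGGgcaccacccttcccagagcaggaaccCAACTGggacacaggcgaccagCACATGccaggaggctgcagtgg

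The CCAAT box had 1 match, at -225 from the start, and occurred in 37.4% of the 32851 RefSeq promoters of this length. GGGCGG, the core of the GC box, had 1 match at -27 and occurred in 35.7% of them. The E-box, CANNTG, had 4 matches, at -133, -39, 5 and 27, and occurred in 72.3%. The letters TATAAA (13.6% of promoters) and TAATTG (8.0%) had 0 matches in this window. The promoter held 10 CpG dinucleotides, against a median of 7 over all promoters, and its GC content was 59.0%, against a median of 52.7%.

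Sdcbp2 was high in every NSN oocyte. Counts were scaled to 1000000 per column (CPM), and Sdcbp2 ran from 48.8 in D-11 through a median of 70.6 to 85.2 in D-30, on 92 to 230 counts per oocyte, with a mean of 68.5 ± 10.4 CPM (SD, n = 9). The highest NSN oocyte was 1.75 times the lowest. The 7 oocytes between D-11 and D-30 lay from 61.0 to 75.2 CPM, so that D-11 and D-30 were the oocytes at the edges of a narrow range.

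In SN oocytes the transcript was low, with 1 exception. The SN values ran from 1.70 CPM in C-17 through a median of 8.57 to 35.8 in D-28, on 3 to 67 counts, with a mean of 10.7 ± 7.61 CPM (SD, n = 16). Of the 16, D-28 stood apart: it was 2.25 times the next oocyte, D-16 at 15.9 CPM, and 4.17 times the SN median. Its exact Poisson 95% interval, which covers counting error only, was 27.7 to 45.4 CPM and did not reach that of D-16, 10.6 to 22.8. Without D-28 the SN mean was 9.04 ± 3.77 CPM (SD, n = 15).

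At the other end of the SN range, C-17 held 3 counts of Sdcbp2, with an interval from 0.351 to 4.98 CPM. The next lowest oocyte was C-19, at 5.15 CPM with an interval from 2.07 to 10.6, so C-17 and C-19 could not be told apart at this depth. The 14 SN oocytes from C-19 to D-16 formed a run in which the intervals of neighbours overlapped.

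Every SN oocyte lay below every NSN oocyte. The gap was narrow because of D-28: the lowest NSN oocyte was 1.36 times D-28, but 3.07 times the second highest SN oocyte. The intervals of D-11 (39.3 to 59.8 CPM) and D-28 overlapped. The mean in SN was 15.6% of that in NSN, a fall of 6.40-fold in mean CPM, or 7.58-fold without D-28. CPM are shares of the counted reads, so a lower value does not give the number of Sdcbp2 molecules lost per oocyte.

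**Figure D1:**
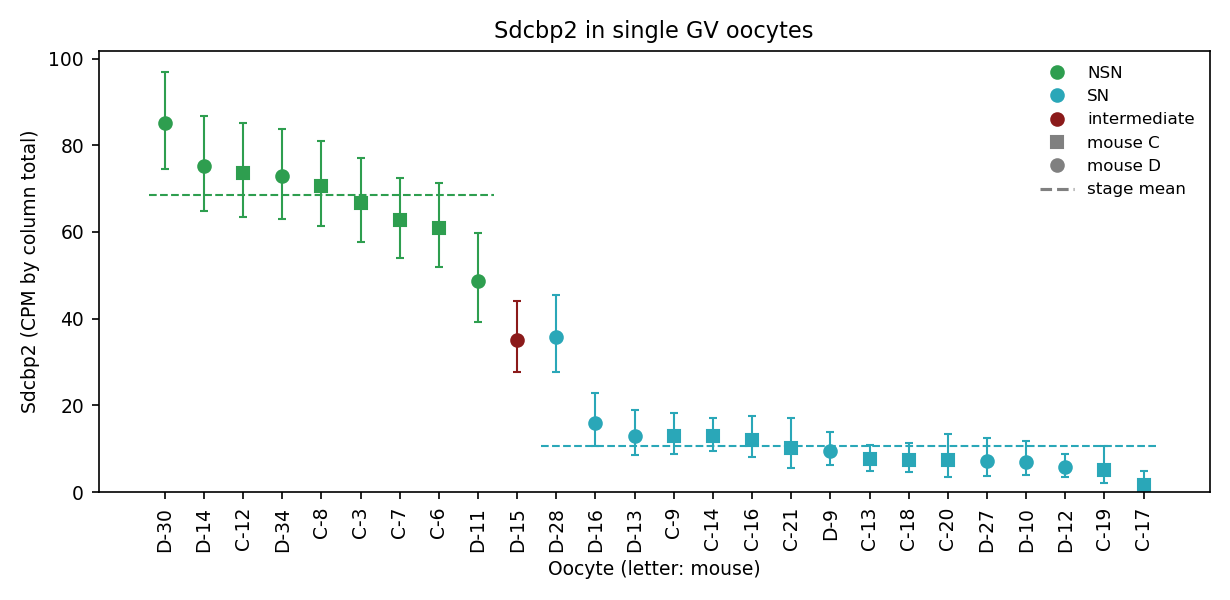
Sdcbp2 in CPM by column total (y axis) for each of the 26 oocytes (x axis, sorted by level within stage), with exact Poisson 95% intervals as bars, squares for mouse C, circles for mouse D and dashed lines at the stage means. The 9 NSN oocytes lie from 48.8 to 85.2 CPM and 15 of the SN oocytes from 1.70 to 15.9, with the intermediate oocyte (35.1) and the SN oocyte D-28 (35.8) in the space between.

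The intermediate oocyte, D-15, held 76 counts of Sdcbp2, or 35.1 CPM, with an interval from 27.7 to 44.0. This was 51.3% of the NSN mean, below every NSN oocyte and above 15 of the 16 SN oocytes. Its ratio to D-28 was 0.982 (exact 95% interval 0.698 to 1.39), so the intermediate oocyte and this SN oocyte held shares of Sdcbp2 reads that did not differ beyond counting error. As there was 1 intermediate oocyte, its stage has no measure of spread.

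On the log2 scale of the fit over all transcripts, the difference of SN from NSN was -2.63 (SE 0.22, edgeR). It was -2.89 among the oocytes of mouse C and -2.38 among those of mouse D. Of the 16657 transcripts tested, 1345 (8.07%) were called lower in SN at an adjusted p under 0.05 and 899 (5.4%) higher. The split depended on scaling, with 1570 lower and 592 higher by library size only. The median difference over all tested transcripts was 0.01.

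Among the tested transcripts at least as abundant as itself in NSN oocytes, a limit set by its own level, Sdcbp2 had the deepest fall. Of the 3335 tested transcripts whose mean CPM in NSN oocytes was at least that of Sdcbp2, none other had a log2 difference of -2.63 or below. Over all tested transcripts, 64 including Sdcbp2 did. The stages did not overlap, with SN below NSN, for 66 tested transcripts (0.396%), Sdcbp2 among them. These places are set by CPM that are not divided by transcript length, and describe reads rather than molecules.

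The relative spread of Sdcbp2 differed in size between the stages. The coefficient of variation (CV, SD over mean) of CPM was 15.1% in NSN and 71.1% in SN oocytes. Counting error alone would give 7.51% in NSN and 21.4% in SN, or 9.03% of the SN variance. With D-28 left out, the SN value was 41.7%, of which counting error would make up 30.8% of the variance.

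Low counts raise the CV of every transcript, so Sdcbp2 was set beside transcripts within 2-fold of its mean count. Among 4172 such transcripts in SN oocytes the median CV was 34.5%, and 98.8% of them were below Sdcbp2. Without D-28 the median was 35.6% over 4121 transcripts, and 69.5% were below. In NSN oocytes, where Sdcbp2 had a mean of 182 counts, the median CV was 20.4% over 3864 transcripts and 21.8% were below. The place of Sdcbp2 among the most spread transcripts of its count in SN thus rested on D-28. The other transcripts also lost D-28, which need not be their own highest oocyte, so the places with and without it are not like for like.

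**Figure D2:**
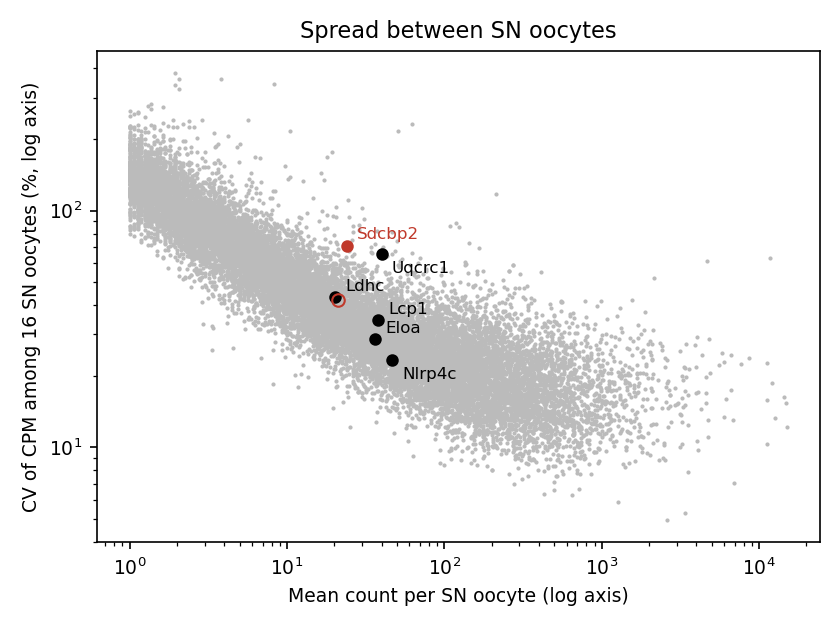
CV of CPM among the 16 SN oocytes (y axis, log) against the mean count per SN oocyte (x axis, log) for every transcript with a mean of at least 1 count (grey), with Sdcbp2 in red and 5 other falling transcripts in black. Sdcbp2 sits at 71.1%, above most transcripts of like count, and at 41.7% (open red circle) with D-28 left out, close to Ldhc at 43.1%.

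The fall in each mouse was then compared. In SN oocytes Sdcbp2 had a mean of 8.57 ± 3.80 CPM (SD, n = 9) in mouse C, where values ran from 1.70 through a median of 7.55 to 12.9. In mouse D it was 13.5 ± 10.5 CPM (SD, n = 7), from 5.70 through a median of 9.60 to 35.8. The ranges overlapped, and the difference of 4.88 CPM was within the spread of these values (exact permutation test over every split, two-sided, p = 0.247, adjusted p = 0.494 over 2 comparisons). Without D-28 the difference was 1.16 CPM (exact permutation test, p = 0.565).

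In NSN oocytes, the 5 from mouse C held 66.9 ± 5.31 CPM (SD) and the 4 from mouse D 70.5 ± 15.5 CPM (SD). All 5 of mouse C lay inside the range of mouse D, and the difference of 3.56 CPM was not beyond their spread (exact permutation test, two-sided, p = 0.667, adjusted p = 0.667). The fall itself differed between mice by 0.49 on the log2 scale, less deep in mouse D (SE 0.449; stage by mouse term in edgeR, adjusted p = 0.914). That test called 0 of 16657 transcripts (0.0%), with 994 at an unadjusted p under 0.05, and DESeq2 likewise called 0, with 1077. In simulated counts the same term recovered 63.5% of 4-fold changes, and changes as small as the 0.49 seen here were not simulated.

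D-28 was next followed through the other transcripts lower in SN, taken as the 100 with the smallest p besides Sdcbp2. They were chosen on the same oocytes, so what follows is a description. D-28 was the highest SN oocyte for 26 of the 100 and C-9 for 24, while no other oocyte was highest for more than 8. Among the 4172 transcripts with a mean count like that of Sdcbp2, D-28 was the highest for 11.1% and C-9 for 5.92%, and C-21 led with 11.8%.

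For most of the 100, D-28 was raised by less than for Sdcbp2. Sdcbp2 in D-28 was 4.74 times the median of the other 15 SN oocytes. Over the 90 falling transcripts for which that ratio could be taken the median was 1.51, and 3 lay above Sdcbp2. The rest of the 100 had no reads in most of those 15 oocytes, so they gave no ratio and are not counted among the 3. On the log2 scale, D-28 stood 70.6% of the way from the mean of the other SN oocytes to that of NSN oocytes for Sdcbp2. The median over the 100 was 32%, with 8 above Sdcbp2. The intermediate oocyte stood 68.4% of the way for Sdcbp2 and 44.0% in the median, with 20 above.

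The depth of D-28 was within the range of its stage, at 1873899 counts against 1358383 to 3647827 in the SN oocytes. Of 11 granulosa and cumulus cell markers, only Amh, a hormone of granulosa cells, had a row with a name here. Amh had at least 1 count in 7 of 9 NSN oocytes (up to 31 counts) and 4 of 16 SN oocytes (up to 10), and D-28 had 1. Mean Amh was 2.44 CPM in NSN and 0.365 in SN oocytes, and its part in the Sdcbp2 values was not tested. The Amh row had its name through the study's lists, which were drawn with these same oocytes by their difference between the stages. The lower Amh in SN was therefore part of how it came to be named. The 5 named of 15 oocyte markers, Zp3, Oosp1, Oosp3, Nobox and Bcl2l10, had counts in all 25 NSN and SN oocytes, the lowest being 203 CPM.

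A score was made from the 100 transcripts, the mean of their z-scored log2 CPM, to place each oocyte between the stages. The score ran from 0.608 to 1.65 in NSN and from -0.962 to -0.150 in SN oocytes, and D-28 had the highest of the SN scores. Over the 16 SN oocytes, log2 CPM of Sdcbp2 and the score had a Pearson r of 0.546 and a Spearman rho of 0.50. The points share the libraries, their scaling and the contrast from which the transcripts were chosen, so no p is given.

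The relation rested in part on D-28. Without it r was 0.312 and rho 0.393 (n = 15), and without D-28 and C-9, the pair farthest from the median score, r was 0.205 (n = 14). Within mouse C r was 0.372 (n = 9) and within mouse D, which holds D-28, 0.804 (n = 7). In the 9 NSN oocytes r was 0.32. For total count r was 0.0859 and for the number of detected transcripts 0.227 over the 16 SN oocytes, and 0.219 and 0.291 without D-28. Within mouse C both exceeded the r of the score, at 0.410 and 0.508, and within mouse D both were negative, at -0.441 and -0.306.

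**Figure D3:**
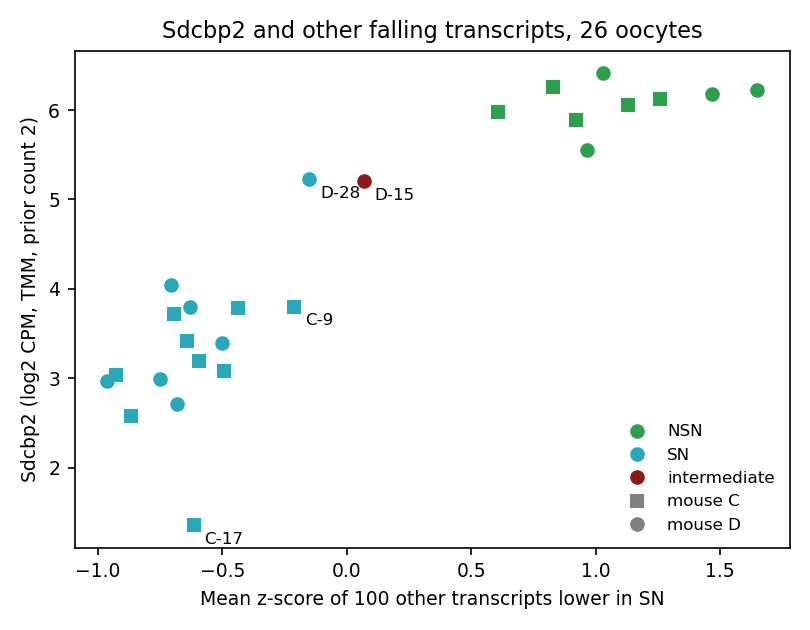
Sdcbp2 (y axis, log2 CPM with TMM scaling and a prior count of 2) against the mean z-score of 100 other transcripts lower in SN (x axis) for 26 oocytes, coloured by stage, with squares for mouse C and circles for mouse D. NSN oocytes lie at the upper right and SN oocytes at the lower left, and D-28 (score -0.150) lies beside the intermediate oocyte D-15.

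Sdcbp2 was then set beside 5 transcripts with a gene symbol, called lower in SN (adjusted p under 0.05) by more than 1 on the log2 scale. They were those nearest to it in mean CPM in NSN oocytes. All 5 had their symbols through the study's lists, drawn with these same oocytes by their difference between the stages. Sdcbp2 was instead chosen with its wide SN spread known, so the spreads are compared as a description only. Uqcrc1, a core subunit of mitochondrial complex III, was the nearest to Sdcbp2 in NSN level. It stood at 68.4 ± 28.8 CPM (SD, n = 9) among NSN oocytes. Among SN oocytes it stood at 17.9 ± 11.7 CPM (SD, n = 16), from 5.88 through a median of 13 to 49.1. The highest SN oocyte was again D-28, which lay above the lowest NSN oocyte at 38.9 CPM, so the stages overlapped. The CV of Uqcrc1 in SN was 65.4%, and 53.8% without D-28.

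The other 4 were less spread in SN oocytes. Lcp1, the actin-bundling protein L-plastin, went from 46.5 ± 11.1 (SD, n = 9) to 16.4 ± 5.65 CPM (SD, n = 16), with D-28 the highest SN oocyte at 25.6 and a CV of 34.5%. Eloa, the elongation factor subunit elongin A, went from 46.0 ± 21.7 to 15.6 ± 4.47 CPM, with C-9 the highest SN oocyte. Ldhc, the lactate dehydrogenase subunit of germ cells, went from 45.4 ± 21.4 to 8.81 ± 3.80 CPM, and D-28 was second to D-9.

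Nlrp4c, of a family of NLR genes expressed in mouse oocytes, went from 42.2 ± 6.92 to 19.9 ± 4.64 CPM, and D-28 was eighth of the 16 at 20.3. Nlrp4c has close copies in the genome, so its counts may be shared with them. D-28 was thus the highest SN oocyte for Sdcbp2, Uqcrc1 and Lcp1 and not for Eloa, Ldhc and Nlrp4c. The order was close for Lcp1, at 25.6 CPM in D-28 and 25.4 in C-9. It was also close for Eloa, at 21.9 CPM in D-28 and 22.5 in C-9. In the intermediate oocyte Lcp1 (34.2 CPM), Eloa (34.2), Ldhc (19.9) and Nlrp4c (31.0) lay above every SN oocyte. Sdcbp2 (35.1) was below D-28 alone, and Uqcrc1 (39.3) was below D-28 and 1 other SN oocyte.

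**Figure D4:**
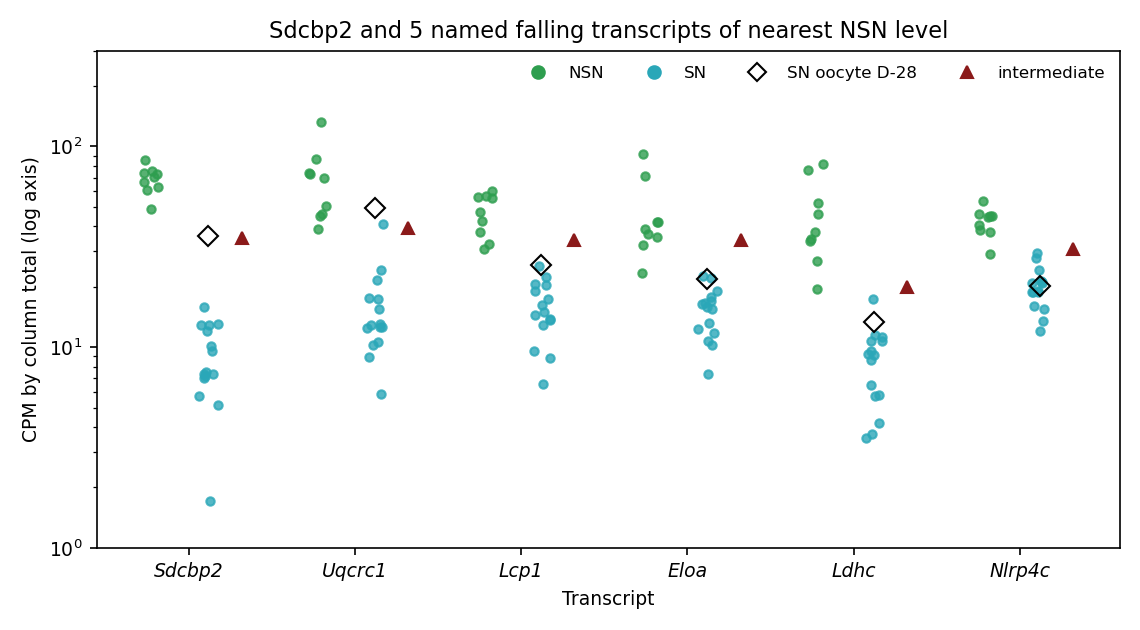
CPM by column total (y axis, log) of Sdcbp2 and the 5 named falling transcripts nearest to it in NSN level (x axis) in each oocyte, with NSN in green, SN in blue, D-28 as an open diamond and the intermediate oocyte as a triangle. D-28 is separated from the other SN oocytes for Sdcbp2 (35.8 CPM), is the highest for Uqcrc1 (49.1) and Lcp1 (25.6), and lies inside the SN range for Nlrp4c (20.3).

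The transcripts whose pattern was most like that of Sdcbp2 were found by Pearson r of log2 CPM among the 12061 transcripts that averaged 10 or more counts. Over the 25 NSN and SN oocytes the nearest were TCONS_00014609 (r = 0.893) and TCONS_00014769 (r = 0.887), which have no name here. The nearest with a name were Zfp707, a zinc finger protein (0.871), Eloa (0.860), Uqcrc1 (0.859), the galactosyltransferase B4galt3 (0.852) and Dedd2, a death effector domain protein (0.845). The median r was -0.02, and 1090 transcripts exceeded 0.5. An r over both stages includes the difference between them, and the log2 difference of SN from NSN was -3.15 for Zfp707, -1.66 for B4galt3 and -2.22 for Dedd2.

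Over the 16 SN oocytes alone the nearest were other transcripts, apart from Eloa. TCONS_00006394 had an r of 0.849, and 0.874 without D-28, although its own difference between the stages was 0.20 on the log2 scale (SE 0.225). TCONS_00107213 followed at 0.816, with a difference of 0.22. The nearest with a name were Tusc2, a mitochondrial protein gene (0.801), the nuclear transport GTPase gene Ran (0.678), Oog4 (0.675), Eloa (0.631) and Zc3hc1, whose product is found at nuclear pores (0.624).

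Without D-28 the r of the named transcripts was 0.690 for Tusc2, 0.507 for Ran, 0.622 for Oog4, 0.576 for Eloa and 0.435 for Zc3hc1. D-28 was the highest SN oocyte for Tusc2, Ran and Zc3hc1. The median r over 12061 transcripts was 0.01, and 376 exceeded 0.5. Oog4 belongs to a family of near-identical genes and Ran has processed copies, so counts of both may be shared.

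The genes that act with syntenins could not be followed. Of 25 genes chosen around the syntenins, including the syndecans, Sdcbp, Pdcd6ip (ALIX), the tetraspanins and the phosphoinositide kinases, 0 had a row with a name here. Names covered 511 of the 38540 transcripts, and the other rows were read by identifier only. Of the 5 annotated genes on each side of Sdcbp2, 1 had a named row, Rad21l, a cohesin subunit of meiosis whose gene lies 55398 bases beyond Sdcbp2.

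Rad21l was far lower in count than Sdcbp2. It had 0 to 21 counts in NSN and 0 to 8 in SN oocytes, or 3.57 ± 2.54 CPM (SD, n = 9) and 0.815 ± 1.25 CPM (SD, n = 16), and the stages overlapped. It fell by 2.02 on the log2 scale (SE 0.56, edgeR). The log2 difference was -2.35 within mouse C and -1.84 within mouse D, and was not called in either. Its row had a name only through the study's lists of transcripts missing from SN oocytes or used to tell the stages apart. Those lists were drawn with these same oocytes, so the fall of Rad21l is a description and no p is given.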

How the data were processed

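Reads had been trimmed with Trim Galore and aligned with HISAT2 2.1.0 to GRCm38 per the labels. With SeqMonk, the authors then counted reads per transcript of an oocyte transcriptome from earlier work, and the deposited values are these raw counts, not normalized. Use of strand in the counting was not given in the sources used here. A deposited table of the authors' own differential expression results was not used for values. Names came from the study's own lists (366 transcripts) and GENCODE M21 (145). The lists held transcripts missing from SN oocytes or used to tell the stages apart, both drawn with these same oocytes. The mouse was taken from the letter in each label.

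CPM were counts scaled to a column total of 1000000. Totals ranged from 1358383 to 3647827 per oocyte, and 0 of 325 pairs of columns were identical. Fold differences were fitted with edgeR 4.0.16 (TMM, quasi-likelihood, R 4.3.3) over the 16657 transcripts that reached 3 counts in 9 or more oocytes, adjusted by Benjamini-Hochberg, threshold 0.05, without the intermediate oocyte. Log2 CPM used a prior count of 2. Like counts were within 2-fold of the mean count. Permutation tests enumerated every split, with scipy 1.17.1. Tested on simulated data for NSN against SN, the fit recovered 94.7% of 4-fold changes, with 4 false calls among 16272 transcripts. Alternatives covered scaling, tool (DESeq2 1.42.0), filter, mouse, depth (counts thinned to the smallest total), prior count, score size and leaving out oocytes. Leaving D-28 out of the correlations and the mouse comparison was added after its value was seen.

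The transcript, the lists and the tests were chosen with earlier results of these data known. Named were Sdcbp2, any named gene of the syntenin network, the 5 transcripts most like it by Pearson r over all and over SN oocytes (and the 5 with a symbol), any named gene among 5 neighbours on each side, and the 5 named falls nearest in NSN CPM. Look-alike transcripts without a symbol beyond the first 2 of each list are not printed.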

Additional observations from a re-analysis of the deposited data

Results flagged for a closer look

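Within the SN oocytes of mouse D (n = 7), the Sdcbp2 value of D-28, 35.8 CPM, was separated from its nearest neighbour, D-16 at 15.9 CPM, by 0.661 of the whole range of that group. Of 10 groups looked at in this way, it was the 1 whose gap exceeded Dixon's 95% limit, which about 1 in 20 groups exceed by chance. That rate does not hold for this group, since Sdcbp2 was chosen with its spread between SN oocytes in view, and the gap is given as a description, not as a test.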

How the results depend on the processing

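The log2 difference of Sdcbp2 between stages kept its direction under every alternative run, from -2.38 within mouse D to -2.89 within mouse C, and leaving out single oocytes gave -2.56 to -2.87, the last without D-28. The CV of Sdcbp2 among SN oocytes was 44.3% within mouse C, and leaving out single oocytes gave 41.7% (without D-28) to 74.7%. Its correlation with the score of falling transcripts was 0.312 without D-28 and 0.205 without the 2 oocytes farthest from the median score, and 0.372 to 0.804 under the others. The difference between mice in NSN oocytes turned to -2.28 CPM with counts thinned to the smallest total, within the spread there too (exact permutation test, p = 0.794). The log2 difference of Rad21l was -2.35 within mouse C and -1.84 within mouse D, past the threshold in neither. The causes of these changes were not tested, and the values within 1 mouse came from fewer oocytes. Transcripts called lower in SN numbered 975 to 2012, against 1345. Of 154 log2 differences of the 22 other transcripts on the lists under alternatives, 147 kept direction and call, 7 lost the call and 0 reversed. Depth limited the lowest SN oocytes, where C-17 held 3 counts of Sdcbp2. Each oocyte was a separate cell scored at 1 stage, so oocytes could not be paired one by one between stages. With the stages compared within mice, the log2 difference of Sdcbp2 was -2.65 (mouse as a term) and -2.66 (counts summed per mouse and stage).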
